A study of Homo sapiens with 12 samples.

Results

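The response to siFAT1-1, 1 of the siRNAs that the study directed against FAT1, was examined across genes in the oral squamous cell carcinoma (OSCC) cell lines HN6 and HN30. The 4 siFAT1-1 libraries and the 4 libraries of cells given a scrambled siRNA (NC) were taken by their labels, which are 8 of the 12 libraries of the series. The 4 libraries of the other FAT1 siRNA were left out. HN6 and HN30 are established human lines of head and neck squamous carcinoma, and no further genotype of either line is used here. Cells of all 4 groups were transfected with Lipofectamine RNAiMAX and harvested 24 h later, so the carrier and the presence of a short double-stranded RNA are shared by NC and siFAT1-1. Each group had 2 repeats at separate times, which the study describes as biological. The labels call the knockdown group FAT1-sh1 in its titles, while its descriptions name a transfected siRNA. Messenger RNA was selected by poly(T), and the deposited values are counts of reads per gene.

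FAT1 encodes a giant atypical cadherin, a transmembrane protein with a long row of cadherin repeats outside the cell and a tail that binds regulators of actin and of the Hippo and Wnt pathways. It is often mutated in squamous carcinomas, and both growth-promoting and growth-restraining roles have been described for it. An siRNA guides the RNA-induced silencing complex to a fully matching messenger RNA, which is then cut, and it can also lower messengers whose 3′UTR pairs only with bases 2 to 8 of the loaded strand.

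The site of siFAT1-1 lies in the coding part of exon 10 of FAT1 and is shown because the word in capitals is used again for the other genes below. On the minus strand of GRCh38, at chr4:186618790-186618810, GENCODE transcript ENST00000441802 reads as follows, with the complement of bases 2 to 8 of the antisense strand of siFAT1-1 in capitals.
FAT1 site: tgcaccacaattTCGAGCAac

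FAT1 fell in both lines. Its level was 55.7 and 64.7 CPM in HN6 NC, 7.42 and 13.3 in HN6 siFAT1-1, 13.3 and 14.3 in HN30 NC and 4.71 and 6.16 in HN30 siFAT1-1, where CPM is the TMM-scaled count per 1000000 counts of the library and the values of a group stand in the order repeat 1, repeat 2. All siFAT1-1 libraries lay below the NC libraries of their line, and FAT1 was higher in HN6 NC than in HN30 NC. The change over both lines was a log2 fold change -1.95 ± 0.31 SE, edgeR adjusted p = 0.0145 (n = 2 libraries per group), and it was -2.54 within HN6 and -1.34 within HN30 (unadjusted P = 0.0302 for the difference between the lines, which did not pass adjustment). The edgeR adjusted p was 0.0439 with the repeats paired, 0.0566 without the second HN6 siFAT1-1 library, and 0.0757 and 0.0552 without the first and the second HN30 siFAT1-1 library. The 3 other members of a list of FAT and Dachsous genes with the smallest P did not pass the test. They were FJX1, a secreted relative of a kinase that acts on FAT cadherins, at -0.28, FAT4 at 0.36 and DCHS1, a ligand of FAT4, at 0.31 on the log2 scale.

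The libraries held between 26430049 and 47639010 counts and between 14859 and 15350 detected genes. Repeats differed most in HN6 NC, where the chi-square per degree of freedom was 241 (counting noise alone gives about 1), against 137 in HN30 NC, 45.8 in HN6 siFAT1-1 and 14.5 in HN30 siFAT1-1. All 12 squamous epithelial markers were among the genes tested, with summed levels of 5280 to 7720 CPM in NC and 7550 to 9950 CPM in siFAT1-1. The 12 fibroblast markers summed to 44.5 to 82.6 CPM in NC and 81.3 to 125 CPM in siFAT1-1, and the 12 leukocyte markers, of which CD2 and MS4A1 had no count, to 41.9 to 112 and 50.2 to 108 CPM. Endothelial markers summed to 14.1 to 34.2 and 18 to 30.9 CPM, and melanocyte and neural markers to 14.6 to 27 and 9.46 to 36.3 CPM. In bulk RNA a gene that is lower because fewer cells express it cannot be told apart from a gene with less RNA per cell.

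Of 14179 genes tested, 873 were differentially expressed genes (DEGs) (P under 0.05 before adjustment and a log2 fold change beyond 1 in either direction), with 535 higher (3.77% of genes tested) and 338 lower (2.38%) after siFAT1-1. An edgeR adjusted p under 0.05 was reached by 598 genes (4.22%), of which 225 rose and 373 fell, and 289 of these were also DEGs (134 higher, 155 lower). Genes are said to have risen or fallen below where this adjusted p was under 0.05, and DEGs are counted as such. With the repeat paired within each line, 144 genes reached an adjusted p under 0.05, and without the second HN30 siFAT1-1 library 25 did. Without the first or the second HN6 NC library the number was 1518 and 1329. Of 97 genes named in the text with an adjusted p under 0.05, 45 kept it with the repeats paired, 20 without the first and 18 without the second HN30 siFAT1-1 library. The median log2 fold change over all genes tested was 0.0092.

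Genes were also counted without a model. In 1496 genes (10.6%) both siFAT1-1 libraries were above both NC libraries in each line, and in 1456 genes (10.3%) both were below. Such genes are called apart from NC below. In a further 453 genes the lines were apart in opposite directions. Genes apart from NC were thus nearly even in direction, while more DEGs were higher than lower and more genes with an adjusted p under 0.05 fell than rose. Of the 598 genes with an adjusted p under 0.05, 593 were apart from NC in both lines, as were 639 of the 873 DEGs.

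Within HN6 alone 503 genes were DEGs (306 higher, 2.16%; 197 lower, 1.39%) and within HN30 alone 1454 were (747 higher, 5.27%; 707 lower, 4.99%). By the adjusted p, 3 genes passed within HN6 (1 higher, 2 lower) and 454 within HN30 (171 higher, 283 lower). In both lines 221 genes were DEGs in the same direction, 122 higher and 99 lower, and 5 were DEGs in opposite directions. The spread of the log2 fold changes over genes was an SD of 0.695 in HN6 and 0.915 in HN30. Without the first HN6 NC library the HN6 count was 1773, and without the second it was 1313. No gene had an adjusted p under 0.05 for the difference between the lines with edgeR (883 genes at an unadjusted P under 0.05), and DESeq2 called 66. With edgeR the number was 729 without the first HN6 NC library and 146 without the second.

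**Figure D1:**
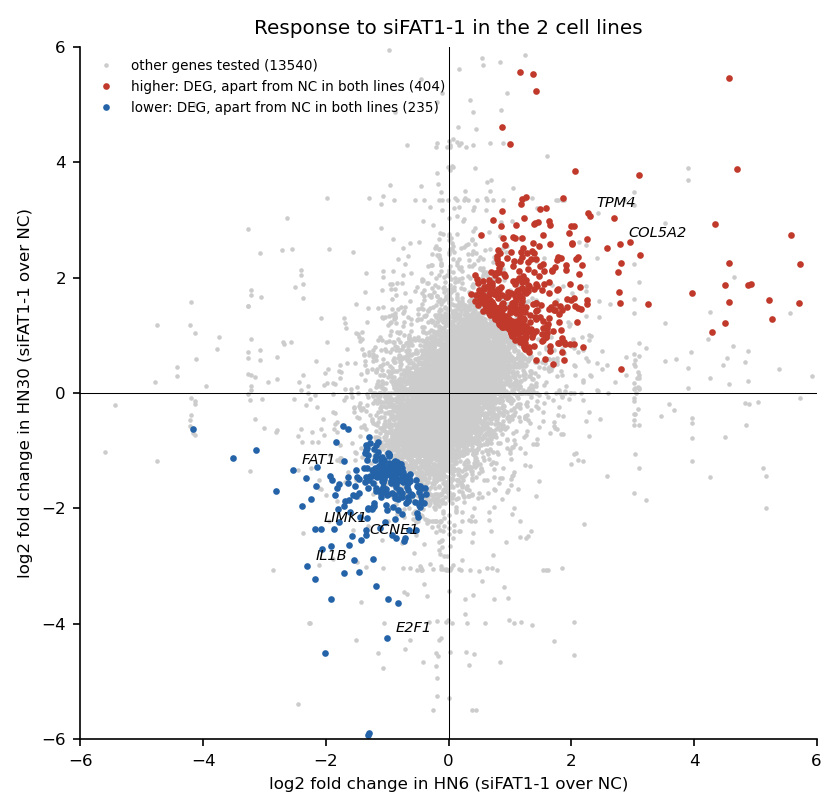
Each point is 1 gene, with its log2 fold change in HN6 on the horizontal axis and in HN30 on the vertical axis (19 genes lie outside the range shown). The 404 higher (red) and 235 lower (blue) DEGs that were apart from NC in both lines fill the upper right and lower left, and the points spread further along the HN30 axis.

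Rising genes are given here by the smallest P among DEGs apart from NC in both lines. TPM4, a tropomyosin that lies along actin filaments, was at 231 and 208 CPM in HN6 NC, 1081 and 1042 in HN6 siFAT1-1, 139 and 149 in HN30 NC and 1277 and 1232 in HN30 siFAT1-1. The groups were far apart in both lines, with a log2 fold change 2.697 ± 0.19 SE, edgeR adjusted p = 0.00114. COL5A2, a chain of the fibrillar collagen type V, was low in NC and was measured at 0.435 and 0.8195 CPM with NC against 5.32 and 3.48 with siFAT1-1 in HN6, and 0.745 and 1.15 against 5.104 and 6.34 in HN30, a log2 fold change 2.69 ± 0.32 SE, edgeR adjusted p = 0.0078. NTN4, which encodes the basement membrane protein netrin-4, rose from 26.3 and 30.98 to 69.6 and 84.6 CPM in HN6 and from 11.2 and 12.3 to 35.8 and 33.8 CPM in HN30 (log2 fold change 1.498 ± 0.14 SE, edgeR adjusted p = 0.00324). SDC4, the heparan sulfate proteoglycan syndecan-4 of focal adhesions, rose from 419.5 and 412 to 987 and 767 CPM in HN6 and from 368 and 364 to 1225 and 1133 CPM in HN30 (log2 fold change 1.38 ± 0.16 SE, edgeR adjusted p = 0.00754). The rule took only genes apart from NC, so the lack of overlap between the groups in these genes follows from it.

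Also of this rank, CDK14, a cyclin-dependent kinase that acts with membrane cyclins in Wnt signalling, rose from 10.9 and 10.8 to 36.5 and 40.3 CPM in HN6 and from 10.04 and 6.11 to 41.8 and 40.2 CPM in HN30 (log2 fold change 2.09 ± 0.21 SE, edgeR adjusted p = 0.00428). EPPK1, the keratin-binding cytolinker epiplakin, rose from 17.5 and 16.2 to 52.3 and 42.4 CPM in HN6 and from 44.7 and 55.8 to 131 and 119 CPM in HN30 (log2 fold change 1.402 ± 0.14 SE, edgeR adjusted p = 0.00447). STX12, a syntaxin of endosomes, rose from 32.5 and 26.7 to 88.01 and 70.4 CPM in HN6 and from 20.7 and 16.5 to 70.7 and 67.4 CPM in HN30 (log2 fold change 1.66 ± 0.17 SE, edgeR adjusted p = 0.00478). TSPAN2, a tetraspanin membrane protein, was low in HN30 and rose from 10.3 and 8.85 to 29.2 and 27.2 CPM in HN6 and from 1.27 and 1.61 to 6.12 and 6.43 CPM in HN30 (log2 fold change 1.83 ± 0.204 SE, edgeR adjusted p = 0.00608). The kinase gene STK39 (1.13, edgeR adjusted p = 0.00754), the zinc finger gene ZKSCAN1 (1.18, edgeR adjusted p = 0.00759) and IFFO2, an intermediate filament family member (1.75, edgeR adjusted p = 0.0078), also rose, with log2 fold changes given first.

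Falling genes were taken by the same rule. LIMK1, the kinase that inactivates the actin-severing protein cofilin, was at 173 and 219 CPM in HN6 NC, 43.5 and 43.5 in HN6 siFAT1-1, 144 and 191 in HN30 NC and 33.6 and 32.02 in HN30 siFAT1-1. Its siFAT1-1 libraries were within a narrow range, well below NC in each line (log2 fold change -2.26 ± 0.15 SE, edgeR adjusted p = 0.00114). MAP3K11, a kinase upstream of JNK, fell from 202 and 196 to 86.4 and 67.7 CPM in HN6 and from 111 and 87.6 to 33.7 and 34.3 CPM in HN30 (log2 fold change -1.46 ± 0.14 SE, edgeR adjusted p = 0.00324). MLLT1, a subunit of the super elongation complex, fell from 82.6 and 102 to 31.7 and 33.9 CPM in HN6 and from 79.6 and 81.9 to 27.1 and 31.8 CPM in HN30 (log2 fold change -1.48 ± 0.13 SE, edgeR adjusted p = 0.00284), and MLLT6, a PHD finger protein, also fell (-1.303, edgeR adjusted p = 0.00324). By the rule, each of these genes was lower in both siFAT1-1 libraries of a line than in either of its NC libraries.

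AATF, which binds RNA polymerase II and p53-pathway factors and takes part in ribosome assembly, fell from 188 and 264 to 54.6 and 54.2 CPM in HN6 and from 111 and 86.3 to 15.2 and 15.3 CPM in HN30 (log2 fold change -2.37 ± 0.19 SE, edgeR adjusted p = 0.00204). NAA60, an N-terminal acetyltransferase of Golgi membranes, fell from 93.2 and 90.1 to 26.2 and 25.8 CPM in HN6 and from 81.1 and 79.2 to 25.7 and 25.3 CPM in HN30 (log2 fold change -1.74 ± 0.12 SE, edgeR adjusted p = 0.00114). INTS14, a subunit of the Integrator complex that cleaves small nuclear RNAs, fell from 50.6 and 72.1 to 15.8 and 17.6 CPM in HN6 and from 49.98 and 51.2 to 10.6 and 9.07 CPM in HN30 (log2 fold change -2.12 ± 0.19 SE, edgeR adjusted p = 0.00277). TULP3, a carrier of receptors into cilia (-2.04, edgeR adjusted p = 0.00277), TXNDC11, a thioredoxin-domain protein of the endoplasmic reticulum (-1.405, edgeR adjusted p = 0.00324), and FAM222B (-1.73, edgeR adjusted p = 0.00204) fell as well. That the siFAT1-1 libraries of these genes were below the NC libraries in each line again follows from the rule.

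**Figure D2:**
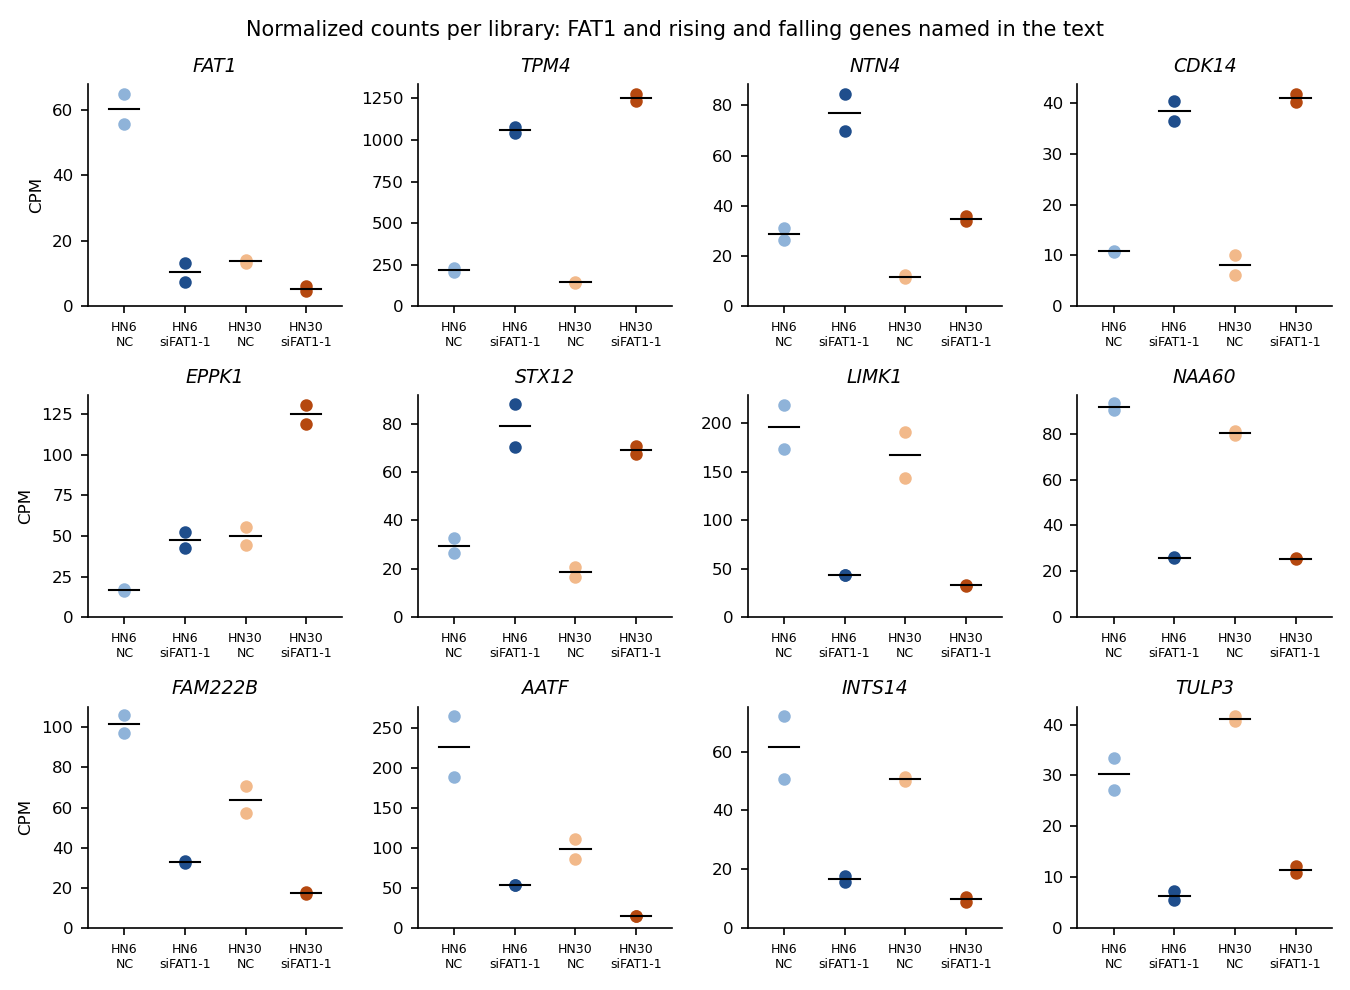
CPM of FAT1 and of 5 rising and 6 falling genes described above, in each of the 8 libraries (points) with the mean of each group (bars). In all panels the siFAT1-1 points of a line lie on one side of its NC points. For the rising and falling genes this was a condition of their choice.

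Interferon-stimulated genes were the list with the highest median among the 66 lists examined. Of 37 genes tested, 36 were higher and 19 were DEGs, all of them higher, beside 3.77% higher DEGs over all genes. Apart from NC were 21 upward and 1 downward, beside 10.6% and 10.3% over all genes. The median log2 fold change was 1.06 over both lines, 1.19 in HN6 and 0.95 in HN30. IFIT2, which blocks translation of foreign RNA, was the member that passed adjustment, and its level was 21.3 and 11.7 CPM in HN6 NC, 84.9 and 62.4 in HN6 siFAT1-1, 31.4 and 96.1 in HN30 NC and 153 and 196 in HN30 siFAT1-1 (log2 fold change 1.803 ± 0.37 SE, edgeR adjusted p = 0.0343). In HN30 the NC repeats of IFIT2 lay far apart, yet both siFAT1-1 libraries were above them. IFI6 at 0.91, the ubiquitin ligase HERC6 at 1.06 and the antiviral ADP-ribosyltransferase PARP9 at 1.06 on the log2 scale followed, with edgeR adjusted p of 0.0546, 0.0591 and 0.0725, and did not pass. HERC6 was measured at 42.9 and 77.4 CPM with NC against 144 and 133 with siFAT1-1 in HN6, and 36.1 and 76.7 against 100.2 and 115 in HN30.

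The NC repeats differed in this list. As the mean log2 CPM over its members minus the NC mean of the line, the HN6 NC libraries were at -0.527 and 0.527 and the HN30 NC libraries at -0.701 and 0.701, while siFAT1-1 was at 1.66 and 1.09 in HN6 and at 1.10 and 1.35 in HN30. All 4 siFAT1-1 libraries were above the NC libraries of their line, by less than the distance between the NC repeats in HN30. In HN6 the same held for the second siFAT1-1 library, at 1.09 against 0.527 in the higher NC library. Without the second HN30 NC library the median of the list was 1.37, and without the first HN6 NC library it was 0.828. The part of the spread between NC repeats in this result was not tested.

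The double-stranded RNA sensors were a separate list of 16 genes, with a median of 0.35. Among them were 3 higher DEGs (beside 3.77% over all genes) and none lower. The median was 0.219 without the first HN6 siFAT1-1 library, 0.233 without the first HN30 NC library and 0.546 without the second. ZBP1, a sensor of Z-form nucleic acid, was low and stood at 1.04 and 3.22 CPM in HN6 NC, 11.04 and 5.18 in HN6 siFAT1-1, 2.84 and 5.62 in HN30 NC and 15.9 and 21.3 in HN30 siFAT1-1 (log2 fold change 2.03 ± 0.42 SE, edgeR adjusted p = 0.0346). DDX58, which encodes the RNA helicase RIG-I, was at 26.8 and 22.5 CPM in HN6 NC, 106 and 65.1 in HN6 siFAT1-1, 68.2 and 212 in HN30 NC and 284 and 373 in HN30 siFAT1-1 (log2 fold change 1.51 ± 0.34 SE, edgeR adjusted p = 0.0469). Both were above NC in every siFAT1-1 library of the same line. EIF2AK2, the kinase PKR, at 0.85 and IFIH1, the helicase MDA5, at 1.11 did not pass adjustment. Among 19 genes of HLA class I antigen presentation no DEG was found, with a median of 0.0965 (0.146 without the second HN6 NC library), and NLRC5, the class I transactivator, was at 0.61 (edgeR adjusted p = 0.116). With the repeats paired, edgeR gave an adjusted p of 0.0792 for ZBP1 and 0.038 for DDX58. With all 12 libraries in the edgeR fit it was 0.0524 for ZBP1 and 0.145 for DDX58.

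The promoter of IFI6 is shown because its interferon word repeats, with each run of the letters AAANNGAAA in capitals. The word AAANNGAAA, searched on both strands of RefSeq promoters of 300 bases, was in 20 of the 29 promoters matched to the interferon list (69%), in 10 of the 14 of its higher DEGs, in 7.24% of the 10918 promoters of genes tested and in 10.6% of all 27305 promoters. The list was written from known functions of its genes, so these shares describe the list. The 250 bases before the start of IFI6 lie on the minus strand of GRCh38 at chr1:27672193-27672442.
IFI6 promoter: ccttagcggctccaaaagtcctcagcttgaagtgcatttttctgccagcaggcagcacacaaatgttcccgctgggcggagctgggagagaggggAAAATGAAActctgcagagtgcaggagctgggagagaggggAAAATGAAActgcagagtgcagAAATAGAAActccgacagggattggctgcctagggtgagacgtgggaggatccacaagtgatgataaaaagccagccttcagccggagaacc

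KRAB zinc finger genes of the cluster on chromosome 19q13 were the list with the next highest median, at 0.853 over both lines, 0.897 in HN6 and 0.729 in HN30. These genes encode DNA-binding repressors, many of which recognise transposable elements. Of 28 tested, 26 were higher and 10 were DEGs, none of them lower, beside 3.77% higher DEGs over all genes. Apart from NC were 14 upward and none downward, beside 10.6% upward over all genes. ZNF468 was measured at 9.23 and 4.59 CPM with NC against 23.2 and 20.5 with siFAT1-1 in HN6, and 4.88 and 4.82 against 13.2 and 13.96 in HN30 (log2 fold change 1.58 ± 0.24 SE, edgeR adjusted p = 0.0127). ZNF616 was low in NC and was at 0.535 and 0.4098 CPM in HN6 NC, 5.08 and 3.11 in HN6 siFAT1-1, 0.276 and 1.91 in HN30 NC and 6.44 and 5.16 in HN30 siFAT1-1 (log2 fold change 2.73 ± 0.54 SE, edgeR adjusted p = 0.0309). ZNF766 rose as well (1.22, edgeR adjusted p = 0.0184), and ZNF701 did not pass (1.08, edgeR adjusted p = 0.0668). Near-identical members of this cluster can share reads, and the counting rule for such reads is not given in the sources used here, so the value of a single member is uncertain. Without the second HN6 NC library the median of the list was 0.609. In the paired fit the edgeR adjusted p was 0.0553 for ZNF616 and 0.058 for ZNF766.

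Clustered histone genes had a median of 0.606, with 28 of 32 higher. Among them were 6 higher DEGs (beside 3.77% over all genes) and none lower. Apart from NC were 8, all upward, beside 10.6% upward over all genes. Most histone messengers of S phase end in a stem-loop without a poly(A) tail, and some members are also made as polyadenylated messengers, the form that a poly(T) selection keeps. HIST1H2BD, an H2B gene, was at 19.1 and 22.8 CPM in HN6 NC, 56.2 and 61.9 in HN6 siFAT1-1, 6.895 and 5.11 in HN30 NC and 59.2 and 50.9 in HN30 siFAT1-1 (log2 fold change 2.34 ± 0.35 SE, edgeR adjusted p = 0.0122). All siFAT1-1 libraries were above NC, and the change was larger in HN30 (3.198) than in HN6 (1.497; unadjusted P of the difference 0.00104). HIST2H2BF (1.72, edgeR adjusted p = 0.0363), HIST1H4H (1.23, edgeR adjusted p = 0.0406) and HIST1H2AC (0.92, edgeR adjusted p = 0.0351) rose too. Histone genes are near-identical copies, and how reads shared by copies were counted is not given in the sources used here. The list lay above NC in both lines, while the replication lists described below were lower in HN30 and overlapped NC in HN6. Pairing the repeats moved the edgeR adjusted p to 0.0927 for HIST2H2BF, 0.104 for HIST1H4H and 0.0926 for HIST1H2AC.

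Epithelial adhesion and keratin genes were mostly higher. Of 14 desmosome genes 12 were higher, with a median of 0.457. Apart from NC were 7 upward and none downward, beside 10.6% upward over all genes. Higher DEGs were 2, beside 3.77% over all genes. PERP, a desmosomal membrane protein and target of p53 and p63, rose from 217 and 282 to 624 and 633 CPM in HN6 and from 328 and 197 to 739 and 610.3 CPM in HN30 (log2 fold change 1.35 ± 0.18 SE, edgeR adjusted p = 0.00948). DSP, the desmoplakin that ties desmosomes to keratin, was at 171 and 98.3 CPM in HN6 NC, 286 and 318 in HN6 siFAT1-1, 394 and 393 in HN30 NC and 556 and 570.5 in HN30 siFAT1-1. Its libraries did not overlap between the groups, but its adjusted p was over the threshold (0.84, edgeR adjusted p = 0.0547), as was that of plakoglobin, JUP (0.57, edgeR adjusted p = 0.0762).

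Keratins were higher in 16 of 17 cases with a median of 0.364. KRT17, a keratin of activated and basal keratinocytes, was at 295 and 368 CPM in HN6 NC, 1193 and 715 in HN6 siFAT1-1, 46.5 and 12.7 in HN30 NC and 111 and 94.6 in HN30 siFAT1-1 (log2 fold change 1.66 ± 0.36 SE, edgeR adjusted p = 0.0418), with the lowest level in the second HN30 NC library. KRT5, the basal keratin, did not pass (0.97, edgeR adjusted p = 0.0944). Without the first HN6 NC library the median of the keratins was 0.20, and without the second it was 0.60. The edgeR adjusted p with the repeat as a block was 0.057 for KRT17.

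Classical cadherins and catenins were higher in 12 of 15 cases, with a median of 0.233. CDH1, which encodes E-cadherin, was at 335 and 626 CPM in HN6 NC, 955 and 995 in HN6 siFAT1-1, 323 and 407 in HN30 NC and 681 and 644 in HN30 siFAT1-1 (log2 fold change 0.94 ± 0.19 SE, edgeR adjusted p = 0.0351). The siFAT1-1 libraries were above NC in each line, though the HN6 NC repeats lay far apart. CDH2, N-cadherin, had a change of similar size that did not pass (0.88, edgeR adjusted p = 0.069), and AFDN, the afadin that links nectins to actin, rose (0.77, edgeR adjusted p = 0.0197). In the 27 genes used to place cells between epithelial and mesenchymal states there was no DEG, the median was 0.235 (0.133 without the first HN6 NC library), and CDH1 was the member that passed adjustment. By the paired edgeR fit the adjusted p was 0.0625 for CDH1 and 0.0831 for AFDN.

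Collagens and their processing enzymes were higher in 25 of 27 cases, with medians of 0.12 in HN6 and 0.627 in HN30. Among them were 4 higher DEGs (beside 3.77% over all genes) and no lower one. COL5A1, the partner chain of COL5A2, was at 489 and 420.4 CPM in HN6 NC, 841 and 692 in HN6 siFAT1-1, 115 and 205 in HN30 NC and 661 and 703 in HN30 siFAT1-1 (log2 fold change 1.42 ± 0.301 SE, edgeR adjusted p = 0.0386). The siFAT1-1 libraries were above NC in both lines and the gap was wider in HN30. P4HA2, a prolyl hydroxylase of collagen, rose (0.66, edgeR adjusted p = 0.0315), and the basement membrane chain COL4A6 narrowly missed the threshold (1.12, edgeR adjusted p = 0.05). COL5A1 and COL5A2 are made by fibroblasts in tissue. The summed fibroblast markers were at 44.5 to 82.6 CPM in NC and 81.3 to 125 CPM in siFAT1-1, so the ranges over both lines barely overlapped. The highest of these markers was COL1A1, itself a collagen. As mean log2 CPM minus the NC mean of the line, the 7 fibroblast markers tested were at -0.0834 and 0.0963 in HN6 siFAT1-1. The HN6 NC libraries were at 0.361 and -0.361. In HN30, siFAT1-1 was at 0.285 and 0.249, against 0.101 and -0.101 in NC. The part of other cells was not tested. When repeats were paired the edgeR adjusted p became 0.0856 for COL5A1 and 0.0936 for P4HA2.

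Of 47 tropomyosins, Ena/VASP proteins and other actin regulators, 33 were higher with a median of 0.129 (0.222 without the first and 0.0855 without the second HN6 NC library, and 0.083 without the second HN30 NC library). Of these 47 genes 3 were higher DEGs, beside 3.77% over all genes, so this count is near the background. Besides TPM4, vinculin (VCL; 0.74, edgeR adjusted p = 0.0408) and non-muscle myosin heavy chain (MYH9; 0.82, edgeR adjusted p = 0.0463) rose, and the tropomyosin TPM2 did not pass (1.13, edgeR adjusted p = 0.071). Of 26 integrin and laminin genes 17 were higher, and 2 fell, beside 373 that fell of the 14179 genes tested. ITGB1, the beta chain of most matrix receptors, fell (log2 fold change -1.34 ± 0.304 SE, edgeR adjusted p = 0.0464) and was at 1238 and 394 CPM in HN6 NC, 339 and 350.4 in HN6 siFAT1-1, 1082 and 847 in HN30 NC and 373 and 339 in HN30 siFAT1-1. Its first HN6 NC library was about as high as HN30 NC and the second was close to siFAT1-1. PXN, the focal adhesion adaptor paxillin, fell as well (-0.76, edgeR adjusted p = 0.0127). With the repeats paired, edgeR gave an adjusted p of 0.0941 for VCL, 0.118 for MYH9, 0.0894 for ITGB1 and 0.0625 for PXN.

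Lists of cell cycle and DNA replication genes had medians below 0 in both lines, further from 0 in HN30 than in HN6. Origin licensing and MCM helicase genes load the replicative helicase onto DNA in G1. Of 27 tested, 26 were lower and 9 were DEGs, all lower (beside 2.38% over all genes), with medians of -0.21 in HN6 and -1.48 in HN30. Within HN30 alone 22 of the 27 were lower DEGs, beside 4.99% of all genes tested. Within HN6 alone 0 were, beside 1.39% of all genes, so this count is near the background. MCM6, a subunit of the helicase, was at 40.9 and 67.4 CPM in HN6 NC, 26.2 and 33.4 in HN6 siFAT1-1, 143 and 96.9 in HN30 NC and 17.6 and 24.2 in HN30 siFAT1-1 (log2 fold change -1.69 ± 0.37 SE, edgeR adjusted p = 0.0429). MCM6 was below NC in every siFAT1-1 library, with changes of -0.86 in HN6 and -2.52 in HN30 (unadjusted P of the difference 0.0075). CDC45, which activates the helicase, at -1.64, and MCM5 at -1.22, MCM2 at -1.38 and MCM7 at -0.96 did not pass adjustment. In the paired fit the edgeR adjusted p was 0.0951 for MCM6.

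Genes of the replication fork had 34 of 36 lower and 11 lower DEGs (beside 2.38% over all genes), with medians of -0.185 in HN6 and -1.39 in HN30. RPA2, a subunit of the single-strand binding protein, fell (-0.95, edgeR adjusted p = 0.0164), as did POLE3, a subunit of polymerase epsilon (-0.84, edgeR adjusted p = 0.0398), while the accessory polymerase delta subunit POLD4 rose (0.82, edgeR adjusted p = 0.0323). FEN1, the flap endonuclease, did not pass (-1.32, edgeR adjusted p = 0.0649). Homologous recombination and Fanconi genes were lower in 32 of 36 cases with medians of -0.0636 and -1.22. Of the 36 genes 5 were lower DEGs, beside 2.38% over all genes. Among them BRCA2 (-1.85, edgeR adjusted p = 0.069) and FANCG (-1.17, edgeR adjusted p = 0.0556) had the smallest P and did not pass. Nucleotide supply genes were lower in 27 of 29 cases with no DEG, with medians of -0.185 and -0.634. Pairing the repeats moved the edgeR adjusted p to 0.0686 for RPA2, 0.107 for POLE3 and 0.0965 for POLD4.

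As list levels, siFAT1-1 stood at -0.227 and -0.0311 in HN6 for the origin and MCM genes, against -0.0974 and 0.0974 in its NC libraries, and at -1.69 and -1.31 in HN30, against 0.0677 and -0.0677. The groups overlapped in HN6 and were far apart in HN30. In HN6 the fork list was at -0.204 and -0.0166 with siFAT1-1, against -0.153 and 0.153 in NC. The recombination list was at -0.00598 and 0.28 there, against 0.176 and -0.176. Both thus overlapped NC in HN6, and both lay below NC in HN30. No gene of these lists passed adjustment for the difference between lines, and the differences of the lists were not tested as such.

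**Figure D3:**
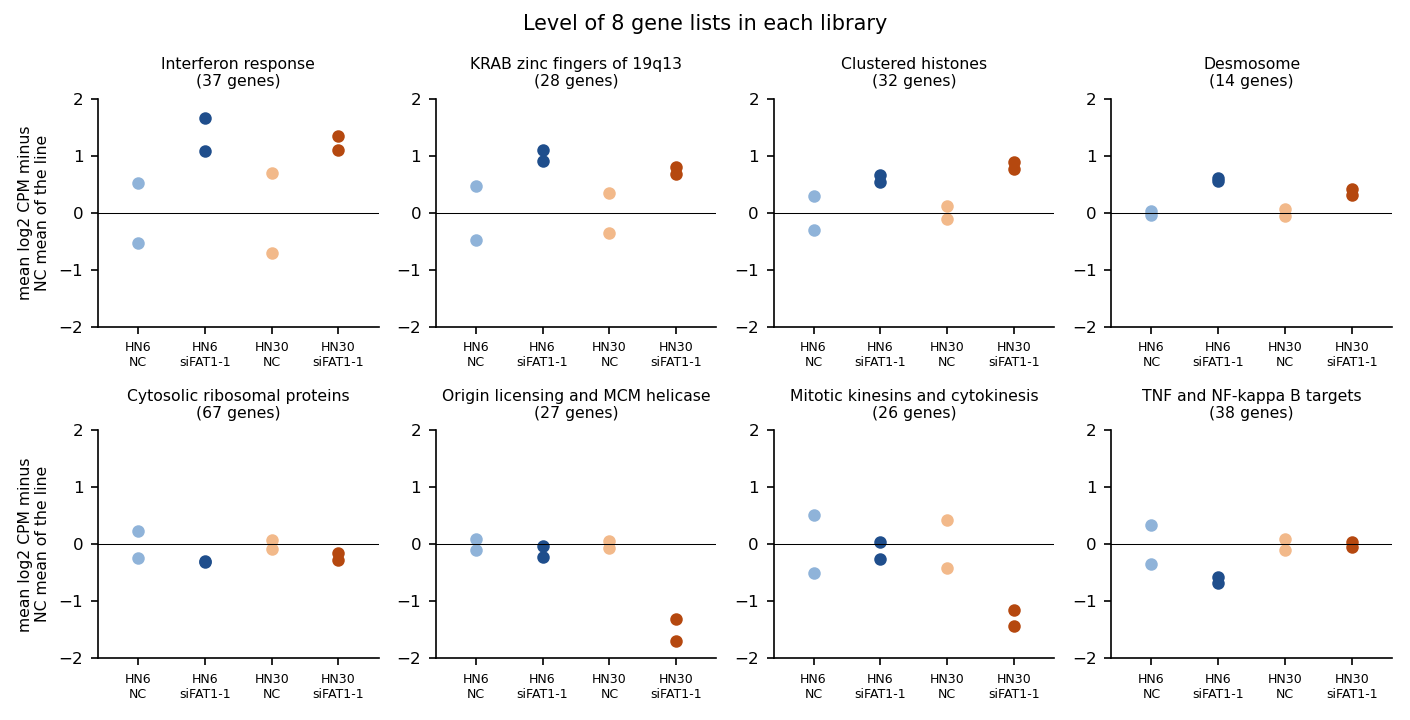
Mean log2 CPM over the genes of 8 lists minus the NC mean of the same line, for each library (points). Interferon genes, KRAB zinc fingers, histones and desmosome genes are higher with siFAT1-1 in both lines, and origin and kinesin genes lie below NC in HN30, at -1.69 to -1.16, and overlap NC in HN6.

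Genes upstream of these programmes were measured as well. E2F1, the transcription factor that drives entry into S phase, was at 43.01 and 79.5 CPM in HN6 NC, 28.7 and 32.4 in HN6 siFAT1-1, 63.6 and 30.2 in HN30 NC and 1.95 and 2.97 in HN30 siFAT1-1. It lay below NC in both lines, by -1.01 in HN6 and -4.24 in HN30, and missed the threshold over both (-2.57, edgeR adjusted p = 0.0783). CCNE1, the cyclin that fires S phase, fell from 19.8 and 20.6 to 6.82 and 8.13 CPM in HN6 and from 27.03 and 11.4 to 3.26 and 3.31 CPM in HN30 (log2 fold change -1.98 ± 0.34 SE, edgeR adjusted p = 0.0189). CDK4, the kinase of D cyclins in G1, fell from 176 and 294 to 106 and 99.7 CPM in HN6 and from 155 and 149 to 47.3 and 49.95 CPM in HN30 (log2 fold change -1.42 ± 0.18 SE, edgeR adjusted p = 0.00854). Within the lines the change of CCNE1 was -1.43 in HN6 and -2.55 in HN30, and that of CDK4 was -1.19 and -1.65. CCNA2 did not pass (-1.08, edgeR adjusted p = 0.124).

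The mitotic lists also had medians further from 0 in HN30. Condensin and cohesin genes had -0.185 in HN6 and -0.735 in HN30, and the 8 genes of the MuvB list -0.007 and -1.09. As list levels, HN6 siFAT1-1 overlapped its NC libraries in all the mitotic lists. Condensin and cohesin genes were at 0.139 and 0.0653, against 0.768 and -0.768 in NC. The MuvB list was at -0.0319 and 0.201, against 0.195 and -0.195, and kinesins at -0.251 and 0.0465, against 0.511 and -0.511. Kinesins and cytokinesis genes were lower in 26 of 26 cases, with 10 lower DEGs (beside 2.38% over all genes) and medians of -0.327 and -1.36. KIF2C, a kinesin that depolymerises microtubules at centromeres, fell (-1.32, edgeR adjusted p = 0.0398), as did SPAG5, a spindle protein (-1.24, edgeR adjusted p = 0.0406). Among 34 kinetochore and centromere genes 33 were lower and 8 were lower DEGs, beside 2.38% over all genes. CENPO fell (-1.13, edgeR adjusted p = 0.0319), while SPC24 (-1.06, edgeR adjusted p = 0.0816) and HJURP (-1.17, edgeR adjusted p = 0.0639) did not pass. Of the mitotic kinases and checkpoint genes 30 of 31 were lower. CDC25B, the phosphatase that activates CDK1, fell from 157 and 316 to 75.9 and 89.6 CPM in HN6 and from 178 and 313 to 71.6 and 70.2 CPM in HN30 (log2 fold change -1.65 ± 0.25 SE, edgeR adjusted p = 0.0127), and INCENP of the chromosomal passenger complex had -1.15, edgeR adjusted p = 0.0473. FOXM1, the transcription factor of G2 and mitosis genes, was at 149 and 264 CPM in HN6 NC, 105 and 113 in HN6 siFAT1-1, 150.1 and 158 in HN30 NC and 22.5 and 33.6 in HN30 siFAT1-1 (log2 fold change -1.68 ± 0.34 SE, edgeR adjusted p = 0.0343). All 4 siFAT1-1 libraries of FOXM1 were below NC, with the widest gap in HN30. The edgeR adjusted p with the repeat as a block was 0.0762 for KIF2C, 0.0666 for SPAG5, 0.0891 for CENPO, 0.0926 for INCENP and 0.085 for FOXM1.

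Promoters of MCM6 and KIF4A are shown as examples of both word classes, which had different shares in the replication and mitosis lists. The E2F words TTTGGCGC or TTTCGCGC or TTTCCCGC or TTTGCCGC, on both strands, were in 12 of 23 promoters of the origin and MCM list (52.2%), in 9 of 31 of the replication fork list (29%), in 2 of 25 of the kinesin list (8%) and in 12.7% of lower DEGs, against 5.07% of genes tested and 3.33% of all promoters. The words of the cell cycle homology region, TTTGAA or TTCGAA, were in 20 of 25 promoters of the kinesin list (80%), in 15 of 28 of the kinetochore list (53.6%), in 2 of 23 of the origin list (8.7%) and in 15.6% of lower DEGs, against 11.2% of genes tested and 16.6% of all promoters. The lists were written from known functions of their genes, many of which are textbook targets of E2F or of the MuvB complex, so these shares describe the lists. The stretches are the 250 bases before the start in GRCh38, on the minus strand at chr2:135876444-135876693 for MCM6 and on the plus strand at chrX:70289854-70290103 for KIF4A, with the E2F words of MCM6 and the homology word of KIF4A in capitals; the 4 E2F matches of MCM6 overlap in pairs on opposite strands. The MCM6 stretch also holds 1 homology word, TTCGAA, near its far end, which is left in lower case, so MCM6 is 1 of the 2 origin genes with a homology word. KIF4A itself had -1.11, edgeR adjusted p = 0.0912.
MCM6 promoter: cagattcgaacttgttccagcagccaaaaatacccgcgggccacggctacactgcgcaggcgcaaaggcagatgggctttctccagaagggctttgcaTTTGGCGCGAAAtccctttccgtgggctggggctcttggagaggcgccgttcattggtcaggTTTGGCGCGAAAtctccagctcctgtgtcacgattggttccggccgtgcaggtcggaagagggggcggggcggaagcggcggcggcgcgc
KIF4A promoter: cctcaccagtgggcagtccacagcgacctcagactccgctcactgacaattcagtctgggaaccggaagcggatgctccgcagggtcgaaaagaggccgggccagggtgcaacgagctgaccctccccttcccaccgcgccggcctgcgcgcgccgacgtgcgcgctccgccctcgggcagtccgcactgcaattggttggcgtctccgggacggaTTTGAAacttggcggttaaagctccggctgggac

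Inflammatory genes were lower in part. Of 38 TNF and NF-kappa B targets 25 were lower, with medians of -0.727 in HN6 and -0.0469 in HN30. Among them were 6 lower DEGs and 1 higher, beside 2.38% and 3.77% over all genes. The median over both lines was -0.35 and turned to 0.0197 without the first HN6 NC library. IL1B, the cytokine interleukin-1 beta, was at 82.2 and 40.02 CPM in HN6 NC, 12.1 and 12.6 in HN6 siFAT1-1, 375 and 137 in HN30 NC and 31.96 and 32.2 in HN30 siFAT1-1 (log2 fold change -2.66 ± 0.36 SE, edgeR adjusted p = 0.00972). It varied between NC repeats in both lines, and every siFAT1-1 library was below them. CD83, a surface protein of activated cells, fell from 28.1 and 30.1 to 9.87 and 6.997 CPM in HN6 and from 22.9 and 13.6 to 3.402 and 4.31 CPM in HN30 (log2 fold change -2.01 ± 0.24 SE, edgeR adjusted p = 0.0078). CXCL2, a neutrophil chemokine, fell (-1.42, edgeR adjusted p = 0.0354). SDC4, a member of the same list, rose as given above. Of the receptors, IL1R1 (1.08, edgeR adjusted p = 0.0127) and IL6R (1.32, edgeR adjusted p = 0.0238) rose, and TRAF3IP2, the adaptor of the IL-17 receptor, fell (-0.79, edgeR adjusted p = 0.0189). TNIP2, an inhibitor of NF-kappa B, fell (-0.81, edgeR adjusted p = 0.0305), while TNFAIP3 (-0.84, edgeR adjusted p = 0.059) and NFKB1 (-0.46, edgeR adjusted p = 0.0958) did not pass. By the paired edgeR fit the adjusted p was 0.0957 for CXCL2, 0.0553 for IL1R1, 0.0831 for TRAF3IP2 and 0.0894 for TNIP2.

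Among genes of growth factor and developmental pathways, single members passed. GRB2, the adaptor that connects receptor tyrosine kinases to RAS, fell from 261 and 306 to 155 and 134 CPM in HN6 and from 193 and 157 to 80.1 and 88.98 CPM in HN30 (log2 fold change -1.01 ± 0.13 SE, edgeR adjusted p = 0.00813). Together with MAP3K11 it was lower in every siFAT1-1 library, while EGFR itself did not pass (-0.52, edgeR adjusted p = 0.105). SMAD3, which carries the TGF-beta signal to the nucleus, fell (-0.702, edgeR adjusted p = 0.0135). When repeats were paired the edgeR adjusted p became 0.062 for SMAD3.

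Of the Notch list the co-activators MAML1 (-1.21, edgeR adjusted p = 0.0185) and MAML3 (-1.81, edgeR adjusted p = 0.0283) fell, with a median of 0.000878 over 25 genes (-0.0355 to 0.085 with a library left out). Of the Wnt list the ligands WNT9A (1.37, edgeR adjusted p = 0.0117) and WNT3 (1.07, edgeR adjusted p = 0.0176) rose and the transcription factor TCF7L2 fell (-0.88, edgeR adjusted p = 0.0351), with a median of -0.13 over 39 genes. That median ran from -0.121 to 0.0464 with a library left out, the highest without the first HN6 NC library, and was 0.0291 with limma-voom. The Hippo list, a pathway tied to FAT cadherins, had a median of 0.0773 over 26 genes (-0.193 without the second and 0.166 without the first HN6 NC library), and its kinase LATS2 fell (-0.77, edgeR adjusted p = 0.0418). Of 29 YAP targets 3 were higher DEGs and 1 was a lower DEG, beside 3.77% and 2.38% over all genes. The lower count is near the background. The median of the YAP targets was 0.0125 (-0.0163 to 0.0974 with a library left out). CYR61, a matricellular target of YAP, rose (1.42, edgeR adjusted p = 0.0354), and LATS2 is also on that list. With the repeats paired, edgeR gave an adjusted p of 0.0625 for MAML3, 0.0737 for WNT3, 0.104 for TCF7L2, 0.0974 for LATS2 and 0.0831 for CYR61.

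Ribosomal protein genes were lower in 67 of 67 cases by small amounts, with a median of -0.267 (-0.142 without the second HN6 NC library). They held no DEG, no adjusted p under 0.05 and 20 apart from NC downward, beside 10.3% over all genes. RPL24 had the smallest P (-0.498, edgeR adjusted p = 0.0649). Their HN6 NC libraries were at -0.238 and 0.238 and siFAT1-1 at -0.305 and -0.294, so the first HN6 NC library was close to siFAT1-1. Splicing factors were lower in 41 of 47 cases with a median of -0.24. Of the 47 genes 6 fell, beside 373 of the 14179 genes tested. PRPF4 of the U4/U6 particle fell from 88.3 and 149 to 41.1 and 45.7 CPM in HN6 and from 68.9 and 64.3 to 14.6 and 15.5 CPM in HN30 (log2 fold change -1.79 ± 0.22 SE, edgeR adjusted p = 0.0078), and HNRNPD (-0.904, edgeR adjusted p = 0.0145), SRSF7 (-0.78, edgeR adjusted p = 0.0181) and U2AF2 (-0.72, edgeR adjusted p = 0.0305) fell less. MYC and ribosome biogenesis genes were lower in 27 of 36 cases with a median of -0.346. ODC1, which makes the first polyamine (-1.03, edgeR adjusted p = 0.0119), MXD4, which competes with MYC for MAX (-1.84, edgeR adjusted p = 0.0187), and MAX (-0.61, edgeR adjusted p = 0.0424) fell. In the paired fit the edgeR adjusted p was 0.0625 for HNRNPD, 0.0625 for SRSF7, 0.0933 for U2AF2 and 0.109 for MAX.

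**Figure D4:**
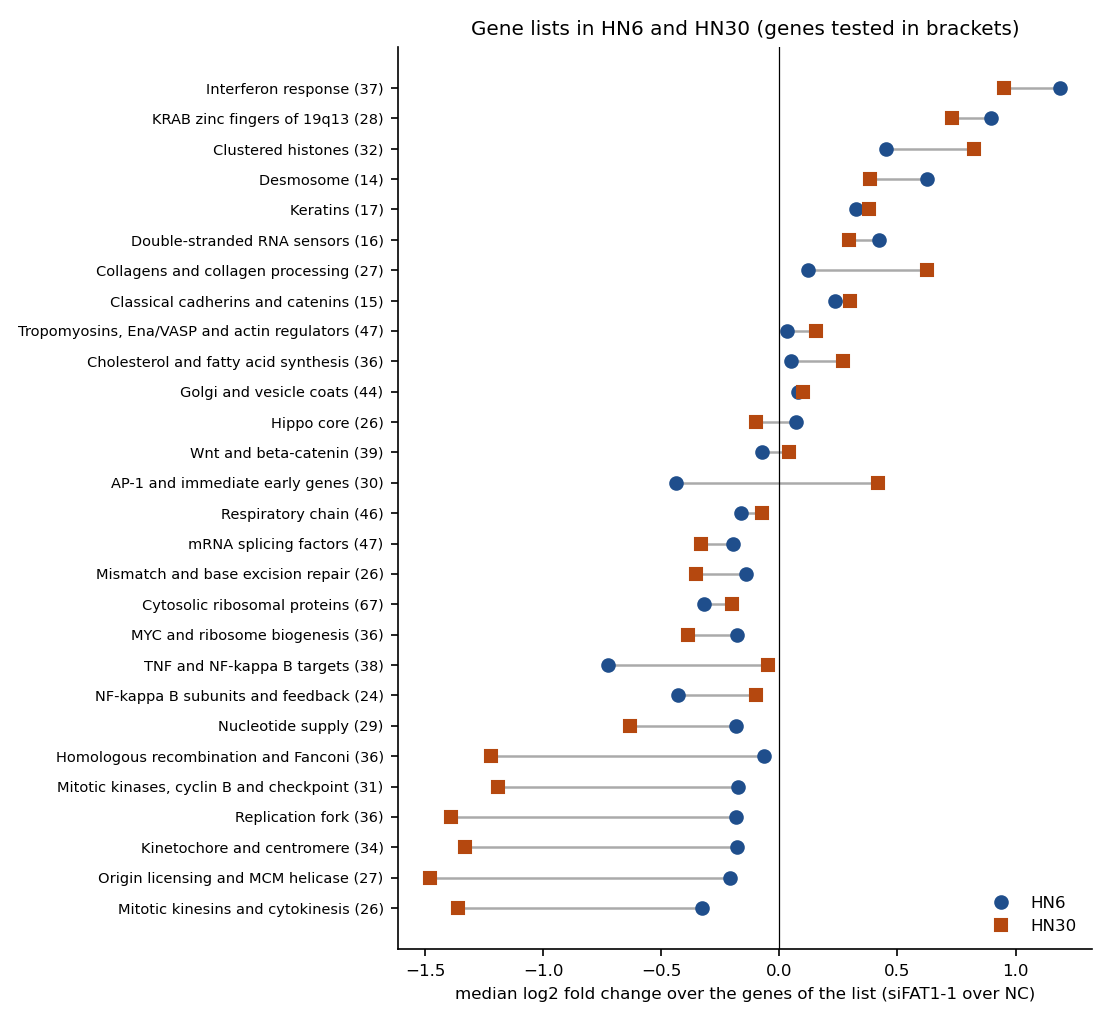
Median log2 fold change of siFAT1-1 over NC for 28 gene lists in HN6 (circles) and HN30 (squares), with the number of genes tested in brackets. Interferon genes have the highest medians in both lines (1.19 and 0.95), and the origin, fork, recombination, kinetochore, mitotic kinase and kinesin lists run from -1.48 to -1.19 in HN30 and from -0.327 to -0.0636 in HN6, with nucleotide supply at -0.634 and -0.185.

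The 3′UTR sites of genes that fell are shown because they hold the same letters, TCGAGCA, as the FAT1 site. Of 13482 genes matched to a GENCODE 3′UTR, 189 held the word on the messenger strand. Of these 64% were lower and 34 (18%) were apart from NC downward, against 49.4% and 10.3% of the 13293 genes without it. Their median was -0.193 (-0.174 in HN6 and -0.162 in HN30), against 0.00629. The word was held by 14 of the genes that fell (7.41% of the 189 holders, against 2.6% of genes without it) and by 2 of those that rose. MLLT1 was 1 of the 12 falling genes with the smallest P, and GRB2, ADO (-1.44, edgeR adjusted p = 0.0078) and FAM117A (-1.82, edgeR adjusted p = 0.00575) were further holders, where ADO encodes a thiol dioxygenase and ADO and FAM117A were named after their values were seen. The stretches of 27 bases lie in GRCh38 at chr19:6211023-6211049 on the minus strand (MLLT1), at chr17:49711132-49711158 on the minus strand (FAM117A), at chr10:62806615-62806641 on the plus strand (ADO) and at chr17:75319378-75319404 on the minus strand (GRB2), with the word in capitals.
MLLT1 3′UTR: acacagcgacTCGAGCAgccttccact
FAM117A 3′UTR: ctctcggcctTCGAGCActttctttca
ADO 3′UTR: gatctgtgagTCGAGCAgatttcatgt
GRB2 3′UTR: agtgggattaTCGAGCAtgttgttttt

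Words of the scrambled siRNA were counted the same way, since NC is the reference of each value. The complement of bases 2 to 8 of its sense strand, TCGGAGA, was in 272 3′UTRs. Of these 65.4% were higher with siFAT1-1 and 55 (20.2%) were apart from NC upward, against 50.1% and 10.1% of genes without it, and the median was 0.182 (0.136 in HN6 and 0.194 in HN30). The word was in 15 of the genes that rose, 5.51% of the 272 holders against 1.46% of genes without it. It was in 8 of the genes that fell, 2.94% against 2.66%. Among the 15 were TPM4 and CDK14, which are also among the 12 rising genes with the smallest P. Their stretches lie on the plus strand of GRCh38 at chr19:16101483-16101509 (TPM4) and chr7:91209252-91209278 (CDK14). The word of the sense strand of siFAT1-1 had a median of 0.0125 (TGTGGTG, 2489 genes). That of the antisense strand of the scrambled siRNA had 0.0792 (TGTCACG, 390 genes). The word of the other FAT1 siRNA, which was not given to these cells, had 0.0571 (GTCGACA, 104 genes). In this order 51.4%, 57.7% and 56.7% of holders were higher, against 50.2%, 50.2% and 50.4% of genes without the word. Apart from NC upward were 10.3%, 11.3% and 14.4%, against 10.3% each time. Shares that rose were 1.41%, 2.56% and 2.88%, against 1.57%, 1.51% and 1.53%. Shares that fell were 2.61%, 4.36% and 1.92%, against 2.67%, 2.61% and 2.67%. These matches are descriptions of letters, and whether a word had a part in the change of a gene was not tested.
TPM4 3′UTR: atattttgtaTCGGAGAagctttgagc
CDK14 3′UTR: ggcagcttctTCGGAGAagtgaaatat

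**Figure D5:**
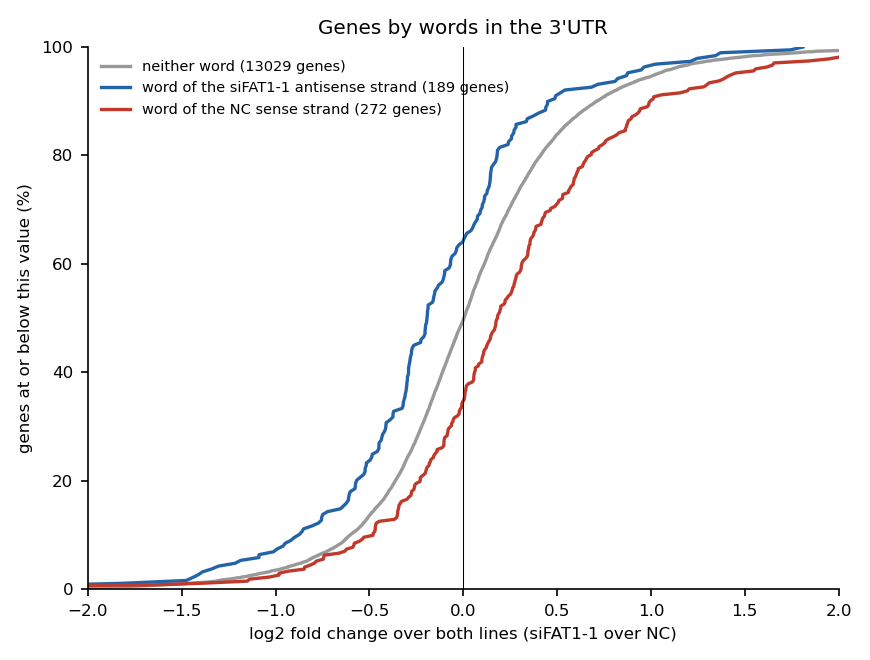
Cumulative share of genes by log2 fold change over both lines, for genes whose 3′UTR holds TCGAGCA (blue, 189 genes), TCGGAGA (red, 272 genes) or neither (grey, 13029 genes). The blue curve lies to the left of the grey curve, with a median of -0.193, and the red curve to its right, with a median of 0.182.

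For the difference between the lines, POLA1, EXO1 and JUN were among the genes with the smallest P. POLA1, the catalytic subunit of the primase polymerase, was at 11.04 and 8.88 CPM in HN6 NC, 8.52 and 11.7 in HN6 siFAT1-1, 31.6 and 34.6 in HN30 NC and 5.28 and 5.22 in HN30 siFAT1-1. It overlapped between the groups in HN6 (0.024) and was far lower in HN30 (-2.66; unadjusted P of the difference 0.000134). EXO1, a nuclease of mismatch repair and recombination, was at 19.7 and 22.9 CPM in HN6 NC, 18.3 and 26.4 in HN6 siFAT1-1, 28.4 and 27.1 in HN30 NC and 2.71 and 4.25 in HN30 siFAT1-1. It had the same pattern, with 0.069 and -2.99 (unadjusted P 0.000144). JUN, a subunit of the AP-1 transcription factor, was at 325 and 336 CPM in HN6 NC, 342 and 355 in HN6 siFAT1-1, 29.5 and 29.3 in HN30 NC and 79.5 and 74.6 in HN30 siFAT1-1. It was about level in HN6 (0.078), where NC was high, and higher in HN30 (1.39; unadjusted P 0.000278). The lowest edgeR adjusted p over all genes for this difference was 0.64, so none of these differences passed.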

How the data were processed

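Poly(A) RNA of 8 libraries was used: NC and siFAT1-1 in HN6 and HN30, with 2 repeats each. The file deposited by the authors holds raw counts of reads per gene, as whole numbers, for all 12 libraries. Reads were filtered and mapped to hg38; the submitters' processing notes name HISAT2 and featureCounts. The annotation, the use of strand and the treatment of reads shared by gene copies are not given in the sources used here, so overlapping, antisense and near-identical genes are uncertain. Every library column matched its label (0 columns were unmapped), and the 4 libraries of the other siRNA were left out. It has 19225 entries and 19223 different symbols, and 27 symbols read as dates.

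Differences were tested with edgeR 4.0.16 (glmQLFit, glmQLFTest, TMM factors, filterByExpr at a minimum count of 10), with the cell line in the model, over both lines, within each line and for the interaction. The Benjamini-Hochberg adjustment ran over all 14179 genes tested. DEGs were set by the thresholds of the study, P under 0.05 before adjustment and a log2 fold change beyond 1 in either direction. The SE of a fold change was taken from the F statistic. The prior count was 0.125 for fold changes and 2 for log2 CPM values. The common dispersion was 0.0876. Libraries held 26430049 to 47639010 counts, and repeats differed by more than counting noise in all 4 groups. P-values rest on 2 libraries per group. A gene was apart from NC when both siFAT1-1 libraries of each line were higher than both NC libraries, or lower than both; ties were not counted.

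The 66 gene lists were written from known functions. The members and lists were chosen with earlier results of these data known, so no list was tested as a set. Genes named were FAT1, the 13 genes of the study's qRT-PCR panel, the 12 rising and 12 falling DEGs with the smallest P among those apart from NC in both lines, the 4 members of each list with the smallest P, and the 4 genes with the smallest interaction P. ADO and FAM117A were chosen after their values were seen. Some genes that this rule names are not reported here.

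By the titles of the samples, repeats 1 and 2 were made at separate times, and the numbers were taken to pair the libraries within a line. Across genes, the deviations of same-numbered NC and siFAT1-1 libraries from the means of their groups correlated at 0.078 in HN6 and -0.0274 in HN30. Alternatives were this pairing as a replicate block, DESeq2's size factors, the DESeq2 1.42.0 Wald test, limma-voom (limma 3.58.1), other filters, a fit of all 12 libraries, no cell line term and each library left out in turn, in R 4.3.3. Steps were tested on simulated data. Symbols were matched to GENCODE 44 on GRCh38 for 3′UTRs (13482 genes, 1 transcript a gene) and to RefSeq promoters of GRCh38.p14 (10918 of the genes tested, 250 bases before to 50 after the start). Sequences were searched and figures drawn in Python 3.11.15, numpy 2.4.6, pandas 2.3.3 and matplotlib 3.10.9.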

Additional observations from a re-analysis of the deposited data

How the results depend on the processing

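The number of DEGs over both lines was 873, moved to 397 (213 higher, 184 lower) without a cell line term, and ran from 655 to 1191 with a library left out. An edgeR adjusted p under 0.05 was reached by 598 genes (225 higher, 373 lower). The number was 144 with the replicate block, of which 143 were among the 598, 1663 with DESeq2 (797 higher, 866 lower), 6 without a cell line term and 25 to 1518 with a library left out. It was 87 without the first and 234 without the second HN6 siFAT1-1 library, and 185 and 259 without the first and the second HN30 NC library. Other normalization, filters, limma-voom and a fit of all 12 libraries gave 452 to 725. DEGs within HN6 ran from 364 to 1773 and within HN30 from 1026 to 1920 with a library left out. The interaction had 0 calls with edgeR, 66 with DESeq2 and 0 to 729 with a library left out. FAT1 kept its direction throughout, at -2.22 (adjusted p = 0.340) without a cell line term and at -2.14 to -1.68 with a library left out. The replicate block, which pairs each siFAT1-1 library with the NC library of its line and time, left FAT1 at an adjusted p of 0.0439 and 45 of 97 named genes under the threshold, and turned no direction. With a library left out 18 to 96 of the 97 kept it and none turned. The causes were not tested. Depth was not varied, and its part in what could be called was not tested. With a repeat left out the lone library is assumed to vary like the other groups.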

Other observations

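Secretory pathway lists had medians from -0.143 (endoplasmic reticulum membrane protein complex) to 0.0614 (Golgi and vesicle coats), beside 0.0092 over all genes tested. Unfolded protein and integrated stress response genes were lower in 22 of 30 cases (-0.102). Oligosaccharyltransferase and translocon genes were lower in 26 of 36 (-0.0769), and Golgi and coat genes were higher in 29 of 44. GANAB, the alpha subunit of glucosidase II that trims glycans in the endoplasmic reticulum, rose from 381 and 789.6 to 1183 and 1265 CPM in HN6 and from 205 and 159 to 536 and 555 CPM in HN30 (log2 fold change 1.32 ± 0.23 SE, edgeR adjusted p = 0.0207). EMC6, a subunit of the membrane protein insertase EMC, rose from 29.3 and 44.6 to 80.3 and 79.5 CPM in HN6 and from 27.4 and 17.9 to 50.1 and 53.7 CPM in HN30 (log2 fold change 1.15 ± 0.19 SE, edgeR adjusted p = 0.0164), while the EMC list as a whole had 11 of 15 genes lower and a median of -0.143 (-0.244 without the second HN30 NC library). ERO1A, the oxidase of protein disulfide isomerase, rose (1.14, edgeR adjusted p = 0.0346). GOLGA2, the Golgi matrix protein GM130, rose from 42.3 and 58.2 to 98.1 and 101 CPM in HN6 and from 82.6 and 63.5 to 180.5 and 176 CPM in HN30 (log2 fold change 1.14 ± 0.16 SE, edgeR adjusted p = 0.00986), and the clathrin light chain gene CLTA fell (-0.75, edgeR adjusted p = 0.0164). The signal recognition particle gene SRP14 (-0.87, edgeR adjusted p = 0.0162) and its receptor subunit SRPRA (-0.79, edgeR adjusted p = 0.0164) fell. Of 40 lysosome and autophagy genes TFEB, the transcription factor of lysosomal genes, rose (0.99, edgeR adjusted p = 0.0429) and the sialidase NEU1 fell (-0.58, edgeR adjusted p = 0.046). Pairing the repeats moved the edgeR adjusted p to 0.0832 for ERO1A, 0.0576 for CLTA, 0.0625 for SRP14, 0.0612 for SRPRA, 0.117 for TFEB and 0.123 for NEU1.

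Metabolic genes also had members that passed. ELOVL6, a fatty acid elongase, was at 25.8 and 20.8 CPM in HN6 NC, 12.1 and 14.6 in HN6 siFAT1-1, 66.7 and 89.8 in HN30 NC and 27.002 and 27.7 in HN30 siFAT1-1 and fell with no overlap in either line (log2 fold change -1.16 ± 0.203 SE, edgeR adjusted p = 0.0202), and the sterol isomerase EBP (-0.61, edgeR adjusted p = 0.0386) and the desaturase FADS1 (-0.64, edgeR adjusted p = 0.045) fell with it, while the list of cholesterol and fatty acid genes had 22 of 36 higher. ME1, the cytosolic malic enzyme, rose (0.95, edgeR adjusted p = 0.0119). Of 46 respiratory chain genes 32 were lower with a median of -0.0987 (-0.162 without the second HN30 NC library) and no DEG, and the complex I subunits NDUFA6 (-0.88, edgeR adjusted p = 0.0323) and NDUFA2 (-0.75, edgeR adjusted p = 0.0386) fell. The edgeR adjusted p with the repeat as a block was 0.0699 for ELOVL6, 0.117 for EBP, 0.119 for FADS1, 0.0501 for ME1, 0.0894 for NDUFA6 and 0.109 for NDUFA2.

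Epigenetic maintenance genes were lower in 17 of 28 cases, with 3 DEGs, all lower, beside 2.38% over all genes. These included UHRF1, which recruits the maintenance methyltransferase, at 92.3 and 203 CPM in HN6 NC, 75.4 and 103 in HN6 siFAT1-1, 214 and 143 in HN30 NC and 32.2 and 48.3 in HN30 siFAT1-1. The siFAT1-1 libraries of UHRF1 were below NC in HN30 (-2.15) and overlapped it in HN6 (-0.73), and the gene did not pass adjustment (-1.44, edgeR adjusted p = 0.0692); SUV39H1, a histone methyltransferase, had -1.05, edgeR adjusted p = 0.0572. Among 30 p53 targets PERP rose and the exonuclease AEN fell (-1.24, edgeR adjusted p = 0.0127), with a median of -0.171 (-0.104 without the first HN6 NC library). Among cornified envelope genes IVL, which encodes involucrin, was at 4.25 and 3.28 CPM in HN6 NC, 1.104 and 0.533 in HN6 siFAT1-1, 0.938 and 0.391 in HN30 NC and 0.145 and 0 in HN30 siFAT1-1 and did not pass (-2.52, edgeR adjusted p = 0.0556). CGN, the tight junction protein cingulin, rose (0.78, edgeR adjusted p = 0.0361), and MMP15, a membrane-bound metalloproteinase, fell (-1.01, edgeR adjusted p = 0.0309). By the paired edgeR fit the adjusted p was 0.0835 for CGN and 0.089 for MMP15.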
